A study of Mus musculus with 18 samples.

Results

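The genes described here encode the machinery that takes a newly made secreted protein into the endoplasmic reticulum (ER), folds it there and carries it on in coated vesicles. They were chosen by name from the array annotation as the Sec61 channel with Sec62 and Sec63, the signal sequence receptors Ssr1 to Ssr4, the signal recognition particle proteins, the signal peptidase subunits Spcs1 to Spcs3, the Pdia disulfide isomerases, the COPII coat, the COPI coat and the Tmed (p24) receptors. The rule reads symbols alone, and it was written with earlier results of these data known. It gave 100 probe sets of 49 genes, out of 45101 probe sets in all and of 18194 genes that had a probe set with a single symbol. A further 15 probe sets carried a member symbol together with other symbols and were left out, and Sec61g, Srp54a, Srp54c and Tmed10-ps were annotated only on such probe sets. 28 of the 49 genes had more than 1 probe set, and the 1 with the highest mean log2 value stands for the gene.

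A protein bound for secretion carries a signal sequence that the signal recognition particle reads while the ribosome is still at work, and the Sec61 channel then threads the growing chain into the ER. Signal peptidase removes the signal, disulfide isomerases form and reshuffle disulfide bonds, COPII-coated vesicles leave the ER, COPI-coated vesicles return escaped material, and p24 proteins act as cargo receptors in both. The adult hepatocyte is a professional secretory cell that makes most plasma proteins, whereas the early liver bud makes few of them and soon becomes a site of blood cell formation. The comparisons ask whether transcripts of this machinery rose as plasma protein genes came on in embryonic liver, how they stood in adult liver, and how liver compared with the rest of the embryo.

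RNA came from CD-1 mice, an outbred stock with no engineered allele. Embryonic liver was measured once a day from 10.5 to 14.5 days post conception (dpc) and then at 16.5 dpc, with 2 arrays for each of the 6 stages. Liver of females 10 weeks old was measured on 2 arrays. The embryo with its liver taken out was measured on 1 array a stage, at every embryonic stage up to 14.5 dpc except 13.5 dpc. The titles of these arrays read embryonic liver, while the source names give embryo minus liver, which is how they were used. Each embryonic sample pooled at least 5 embryos. The labels call the arrays biological replicates and say nothing more, so the p-values speak only for the spread seen among these arrays, which may be technical. The treatment notes of the adult samples describe a liver resection, while title, source and description give untreated baseline liver, which is how they were used.

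Values are probe set intensities on the deposited linear scale. The 14 liver arrays had median intensities of 69.7 to 79.5 and 99th percentiles of 1325 to 2935, whereas the 4 arrays of embryo without liver, or rest of the embryo, had medians of 91.9 to 106.8 and 99th percentiles of 5553 to 5953. Values below 0 occurred on every liver array and on none of those 4, so the arrays of the tissues hold differently scaled values. The 99th percentile was 1325 on adult array 1 and 2285 on adult array 2. The 3' to 5' ratio of the Gapdh control, a measure of RNA integrity, was 2.82 on 1 of the 10.5 dpc liver arrays and 0.744 to 0.886 on the other liver arrays. Albumin (Alb) read 956 and 1541 on the 10.5 dpc liver arrays, 8695 and 8651 on those of 16.5 dpc, and 8205 and 7464 in adult liver, against 105 to 1220 in the rest of the embryo, so the liver label held. The rest of the embryo was not free of such transcripts. Its summed hepatocyte markers were 1572 at 10.5 dpc and 9910 at 14.5 dpc, against 5387 to 6238 and 23520 to 24605 in liver. In whole tissue, fewer cells of a type and less RNA per cell cannot be told apart.

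Of the 49 genes, 46 were bright enough to be tested among the liver arrays and 47 between tissues. The single-symbol probe sets of Tmed2 and Tmed6 stayed between 1.89 and 34.3 and between 7.13 and 43.2 on all 18 arrays and were not tested. Tmed11 read at most 61.5 on any liver array and 62.9 to 101.5 in the rest of the embryo, and was tested between tissues only. A gene is called higher or lower at an adjusted p under 0.05 in limma, a moderated linear model fitted over all genes.

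Between 10.5 and 16.5 dpc, plasma protein transcripts rose steeply in the liver and most of the secretory machinery was not called. Of 32 plasma protein genes tested, 30 rose, with a median change of 2.81 log2. Some of them, such as Ahsg and Apoh, lay under the floor set for low values at 10.5 dpc. They were tested only through later arrays and could not fall, so this count and median support no contrast with the machinery. Alb, bright at 10.5 dpc, was not among these genes. Of the 46 machinery genes, 7 rose (Pdia2, Pdia5, Ssr4, Copz1, Sec62, Spcs3 and Cope) and 2 fell (Sec24b and Sec31a). These 9 are 19.6% of the machinery genes tested, while 35.7% of all 14125 genes tested were called, 20.6% higher and 15.1% lower. The median difference was -0.01 log2 over the machinery genes and 0.05 over all genes. For 43 of the 46 the 95% interval of the difference ended below a rise of 1 log2, and for 33 it ended below 0.5 log2.

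**Figure D1:**
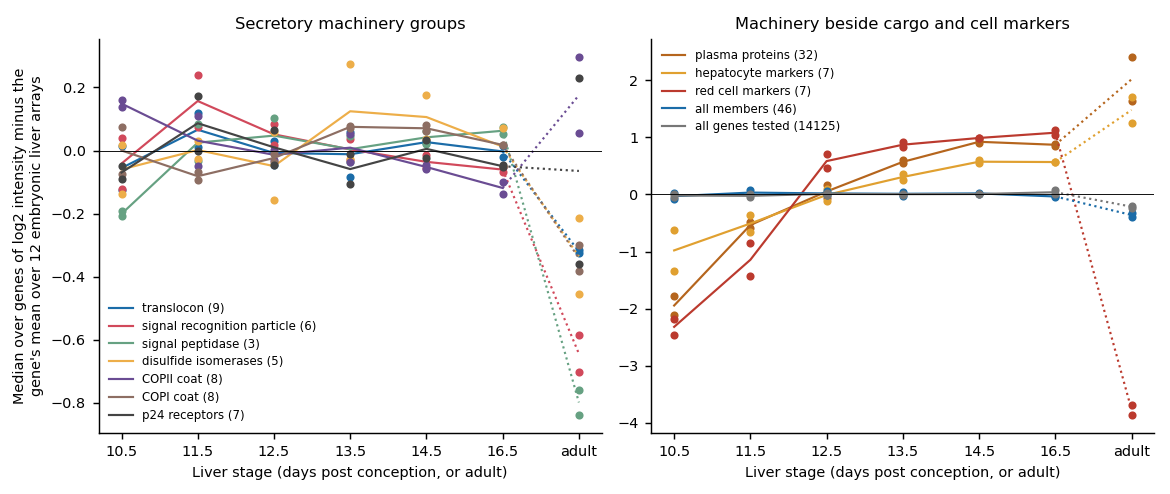
Median log2 intensity of each machinery group (left) and of plasma protein genes, hepatocyte markers, red cell markers, all 46 tested machinery genes and all 14125 tested genes (right) on each liver array, relative to the mean of the 12 embryonic liver arrays. Points are arrays, the x axis is the stage in dpc with adult liver last, and the dotted line joins 16.5 dpc to adult. The plasma protein line, which includes genes that could not fall, climbs from 10.5 to 16.5 dpc. That of the machinery stays near 0. The medians of the fitted differences of single genes, which are not the plotted values, are 2.81 log2 for plasma proteins and -0.01 for the machinery.

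Single genes show the size of the changes. Ahsg, which encodes the plasma glycoprotein fetuin-A, read 6.08 and 2.88 at 10.5 dpc, below background, and 3397 and 3352 at 16.5 dpc. Its fitted difference of 7.09 log2 (SE 0.19, adjusted p = 1.20e-08) is held down by the floor set under low values. Apoh, the apolipoprotein also called beta-2-glycoprotein I, differed by 6.84 log2 (SE 0.26), with both 10.5 dpc arrays under the floor as well. Among the machinery, the 3 genes with the largest rises were Pdia2, Pdia5 and Ssr4.

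The ER import genes moved little. Srp9, Srp14, Srp19, Srp54b, Srp68 and Srp72, which build the particle that reads the signal sequence, gave 0 called genes of 6 and a median difference of -0.03 log2. Of 9 channel and receptor genes, 2 rose and the median was 0.02. Sec61a1, whose product forms the pore of the channel, was not called and read 805 and 1009 at 10.5 dpc, but 2 of its 5 other probe sets read 15.1 and 11.3 on the first of these arrays and 533 and 277 on the second. Ssr4, the delta subunit of the signal sequence receptor (translocon-associated protein) complex that sits beside the Sec61 channel, read 677 and 761 on the 10.5 dpc arrays. It read 1136 and 1205 a day later and 1325 and 1266 at 16.5 dpc. Both 10.5 dpc arrays lay under every later embryonic array, and the step came between 10.5 and 11.5 dpc. From 10.5 to 16.5 dpc Ssr4 rose by 0.85 log2 (SE 0.12, adjusted p = 0.000256). Its 3 partners in that complex were not called. Sec62, a channel partner used by short secreted proteins, rose by 0.46 log2 (SE 0.16, adjusted p = 0.0433) from 571 and 661 to 863 and 821, though 1 of its 3 other probe sets gave -0.23. Among the signal peptidase genes, the subunit gene Spcs3 read 506 and 648 at 10.5 dpc and 768 and 780 at 16.5 dpc, a rise of 0.43 log2 (SE 0.14, adjusted p = 0.0323), and Spcs1 and Spcs2 were not called.

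Disulfide isomerases split. Pdia2, an isomerase best known from exocrine pancreas, read -2.10 and 79.7 on the 10.5 dpc arrays. The 11.5 dpc arrays read 281 and 241, the 12.5 dpc arrays 477 and 359, and the 16.5 dpc arrays 526 and 457. Its level climbed until 12.5 dpc and stayed between 359 and 526 on all embryonic liver arrays from then on. The fitted rise was 3.46 log2 (SE 0.41, adjusted p = 7.63e-05), with 1 of the 10.5 dpc arrays under the floor of 24.8. That array is the 1 with the Gapdh ratio of 2.82. The rise was 2.62 log2 (adjusted p = 2.57e-05) without it and 4.30 (adjusted p = 1.48e-06) without its partner. Pdia5 climbed over the whole series, from 166 and 180 at 10.5 dpc through 242 and 236, 298 and 269, and 352 and 387 on the next 3 days. It reached 409 and 421 at 14.5 dpc, and the 16.5 dpc arrays read 422 and 413. No array of 1 stage overlapped the next until 14.5 dpc, and the rise was 1.27 log2, or 2.42-fold (SE 0.11, adjusted p = 8.07e-06). Pdia3, the partner of the lectin chaperones calnexin and calreticulin, and Pdia4 and Pdia6 were not called. Pdia3 had wide spread, reading 939 and 1563 on the 2 arrays at 12.5 dpc.

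Markers of exocrine pancreas were read for Pdia2. Of 5 tested, 3 were higher at 16.5 than at 10.5 dpc, with a median of 0.64 log2. Their summed level was 1582 to 2230 at 10.5 dpc, 2541 to 2633 at 16.5 dpc, 2311 to 2865 in adult liver and 1431 to 1715 in the rest of the embryo. Cel, the pancreatic lipase activated by bile salts, stayed under the floor at 10.5 and 16.5 dpc. The part of these transcripts in the Pdia2 result was not tested.

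The vesicle coats gave 2 rises and 2 falls. In the COPI coat, 2 of 8 genes rose, and the median was -0.01 log2. Copz1, the zeta subunit of the coat's adaptor-like part, read 629 and 739 at 10.5 dpc and 1003 and 1091 at 16.5 dpc, a rise of 0.62 log2 (SE 0.13, adjusted p = 0.00289). Cope, the epsilon subunit of the outer coat, rose by 0.28 log2 (SE 0.10, adjusted p = 0.0441), from 599 and 636 to 745 and 757. In the COPII coat, 2 of 8 genes fell and the median was -0.25 log2. Sec24b, 1 of 4 related cargo-binding subunits, read 295 and 255 at 10.5 dpc and 184 and 136 at 16.5 dpc, and fell by 0.80 log2 (SE 0.17, adjusted p = 0.00392). Sec31a, part of the outer COPII cage, read 418 and 408 at 10.5 dpc and 278 and 292 at 16.5 dpc, and fell by 0.54 log2 (SE 0.15, adjusted p = 0.0184). None of the 7 p24 genes tested was called, and their differences ran from -0.16 to 0.12 log2.

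Scaling set some of these calls. With each array centred on the median of its tested genes, 4 machinery genes were called higher and 5 lower, and quantile normalization gave 4 and 5 as well. Over all genes, quantile normalization gave 16.9% higher and 18.3% lower. Pdia2, Pdia5, Ssr4 and Copz1 rose, and Sec24b and Sec31a fell, under all 3 scalings, whereas Sec62, Spcs3 and Cope lost their calls under at least 1. The count of 7 rises was 4 without the first 10.5 dpc array, either 14.5 dpc array or either 16.5 dpc array. The 2 falls became 1 without the first 10.5 dpc array or either 16.5 dpc array, Sec31a being the gene lost, with an adjusted p of 0.0645 (-0.52 log2) without the first 10.5 dpc array.

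Several cell types moved over the same days. Summed red cell markers went from 1662 to 1928 at 10.5 dpc to 18395 to 18750 at 16.5 dpc, summed neutrophil markers from 608 to 740 to 7343 to 7870, and summed hepatocyte markers from 5387 to 6238 to 24357 to 24834. Heart markers stood at 13945 to 22367 on the 10.5 dpc arrays and 1240 to 1302 at 16.5 dpc, and 8 of 9 fell. Mesenchyme and stellate cell markers stood at 6824 to 8232 and 2379 to 2469, and 9 of 9 fell. The part of these shifts in the machinery values was not tested.

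**Figure D2:**
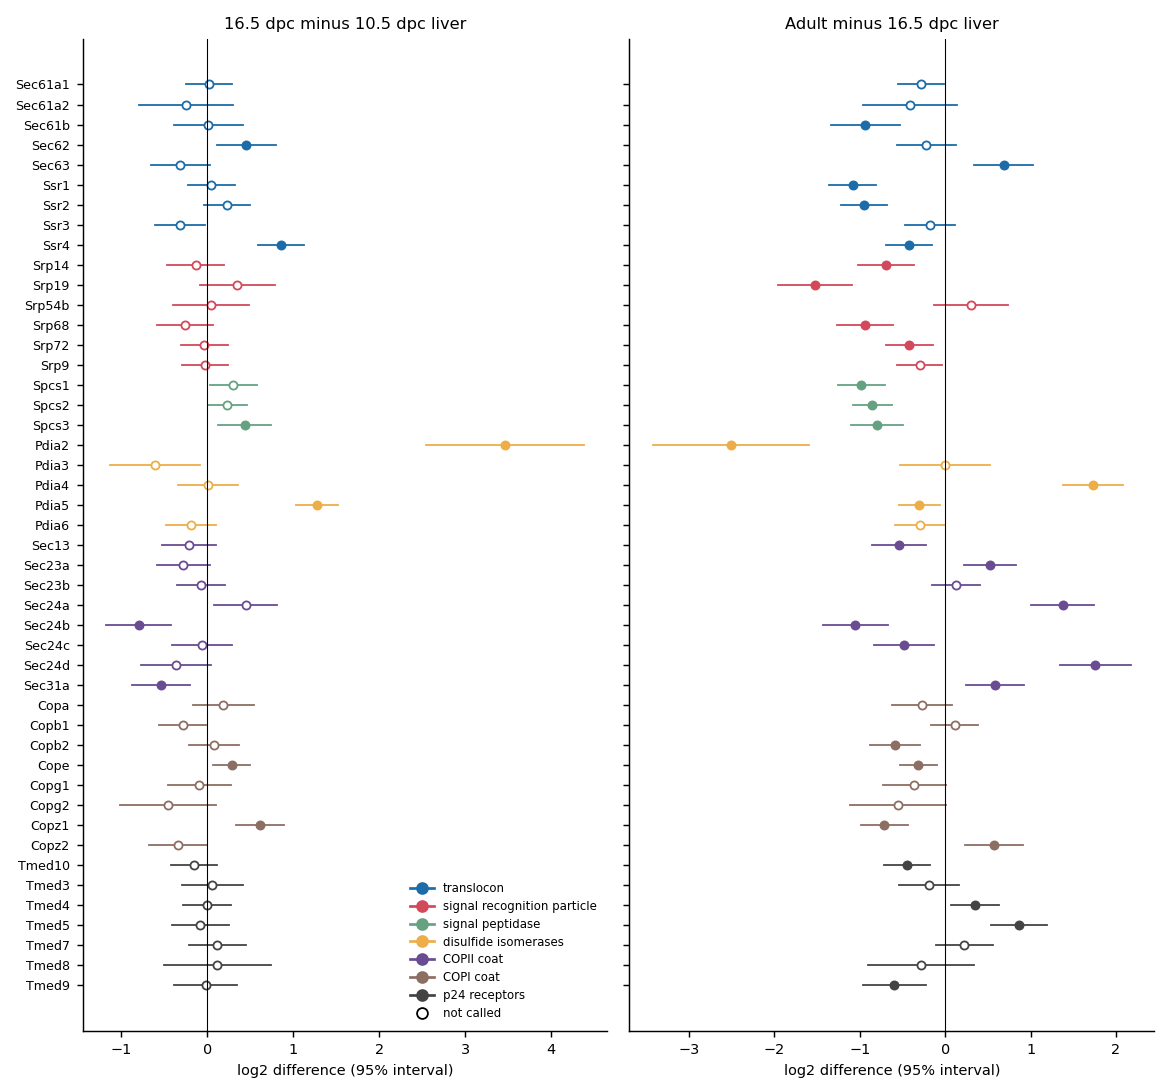
Fitted log2 difference of the 46 tested machinery genes, grouped by role, for 16.5 minus 10.5 dpc liver (left) and adult minus 16.5 dpc liver (right). Points are estimates, bars are 95% intervals, filled points are called; 9 genes are called on the left and 30 on the right, and both panels use the same 16.5 dpc arrays.

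Heart markers stood at 462 to 482 on the 11.5 dpc arrays, and 16.5 dpc was also set against 11.5 dpc. Other markers differed between these stages, with 7 of 7 red cell markers higher at 16.5 dpc (summed level 4083 to 5701 at 11.5 dpc), 6 of 6 neutrophil markers higher (2143 to 2258 at 11.5 dpc) and 6 of 9 mesenchyme markers lower (3686 to 4071 at 11.5 dpc), and their part in the result was not tested. Both comparisons use the same 16.5 dpc arrays. Here 2 machinery genes rose and 3 fell, beside 22.4% of all genes called, 13.4% higher and 9.06% lower. The median was -0.09 log2 over the machinery and 0.08 over all genes. Pdia5 rose by 0.81 log2 (SE 0.11, adjusted p = 0.000517) and Sec62 by 0.53 (SE 0.16, adjusted p = 0.0336). Tmed5, a p24 receptor, read 353 and 456 at 11.5 dpc against 254 and 234 at 16.5 dpc and fell by 0.72 log2 (SE 0.15, adjusted p = 0.00638). Sec24b fell by 0.59 log2 (SE 0.17, adjusted p = 0.0322), and Srp68, a protein of the signal recognition particle, fell by 0.54 (SE 0.15, adjusted p = 0.0263). Pdia2 gave 0.92 log2 and was not called (adjusted p = 0.139). Centring gave 1 rise and 6 falls, beside 10.7% and 14.5% of all genes, and quantile normalization 1 and 8, beside 10.7% and 15.5%. Pdia5, Sec24b, Srp68 and Tmed5 were called under all 3 scalings. The count of falls was 1 without the first 11.5 dpc array and 0 without the second 11.5 dpc array or the second 16.5 dpc array. The count of rises was 1 without either array of 11.5, 14.5 or 16.5 dpc.

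Asked over all 6 embryonic stages at once, 5 of the 46 genes differed between stages in limma's moderated F test, beside 29.9% of all genes. Their stage means spanned 3.53 log2 for Pdia2 (adjusted p = 0.000404), 1.27 for Pdia5 (adjusted p = 3.65e-05), 0.88 for Tmed5 (adjusted p = 0.0114), 0.85 for Ssr4 (adjusted p = 0.00213) and 0.65 for Copz1 (adjusted p = 0.0117). Summed heart markers stood at 3418 and 10557 on the 12.5 dpc arrays, which enter this test. Tmed5 differed from the other 4 in its course, with its highest pair of embryonic arrays at 11.5 dpc. On the mean of all probe sets of a gene, Tmed5 (adjusted p = 0.158) and Ssr4 (adjusted p = 0.138) lost their calls in this test. Copz1 lost its call with quantile normalization (adjusted p = 0.0577), and it spanned 0.53 log2 without the first 10.5 dpc array. The count was 9 without either of the adult arrays, which enter the estimate of spread, and Pdia2 spanned 2.68 or 4.37 log2 without the first or the second 10.5 dpc array.

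Genes that work next to the machinery were read from lists of its partners. Over all genes tested 35.7% were called from 10.5 to 16.5 dpc, 20.6% higher and 15.1% lower. Of 12 genes of ER-associated degradation, which removes misfolded proteins, 5 rose and 0 fell from 10.5 to 16.5 dpc, including the mannosidase-like Edem2 by 1.08 log2 and Edem1 by 0.77. Of 13 regulators of the ER stress response, 5 rose and 2 fell. Ppp1r15a, which restores translation after stress, rose by 3.70 log2, and Creb3l2, an ER-bound transcription factor, fell by 1.99. Of 22 receptor and transport partners, 5 rose and 4 fell. Sec16b, a scaffold of ER exit sites, rose by 1.18 log2, and Kdelr1, the receptor that returns ER residents, fell by 1.33. Of 11 oligosaccharyltransferase genes, which attach N-glycans, 2 rose (Stt3a by 0.52) and 1 fell (Krtcap2 by 0.80). Of 19 ER chaperones and oxidases, 3 rose, among them the oxidases Ero1b by 0.54 log2 and Ero1a by 0.48, and 1 fell. The shares called were 41.7% for ER-associated degradation, 53.8% for stress regulators and 40.9% for receptor and transport partners. They were 27.3% for oligosaccharyltransferase genes and 21.1% for chaperones and oxidases.

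In adult liver the machinery differed from 16.5 dpc liver in both directions. Of the 46 genes, 9 were higher in adult liver and 21 lower, with a median of -0.31 log2. Over all genes 54.6% were called, 17.1% higher and 37.5% lower, with a median of -0.24. Genes called lower were 4 of 6 in the signal recognition particle, 3 of 3 in signal peptidase, 4 of 9 in the channel and receptor group, 2 of 5 disulfide isomerases, 3 of 8 in COPII, 3 of 8 in COPI and 2 of 7 p24 receptors. Genes called higher were 4 of 8 in COPII, 2 of 7 p24 receptors and 1 each among the channel and receptor genes, the isomerases and COPI. The medians were -0.56 log2 for the signal recognition particle, -0.85 for signal peptidase, -0.41 for the channel and its receptor, -0.30 for disulfide isomerases, 0.32 for COPII, -0.34 for COPI and -0.19 for p24 receptors. In the same comparison 22 of 32 plasma protein genes were higher and 2 lower, with a median of 0.97 log2.

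**Figure D3:**
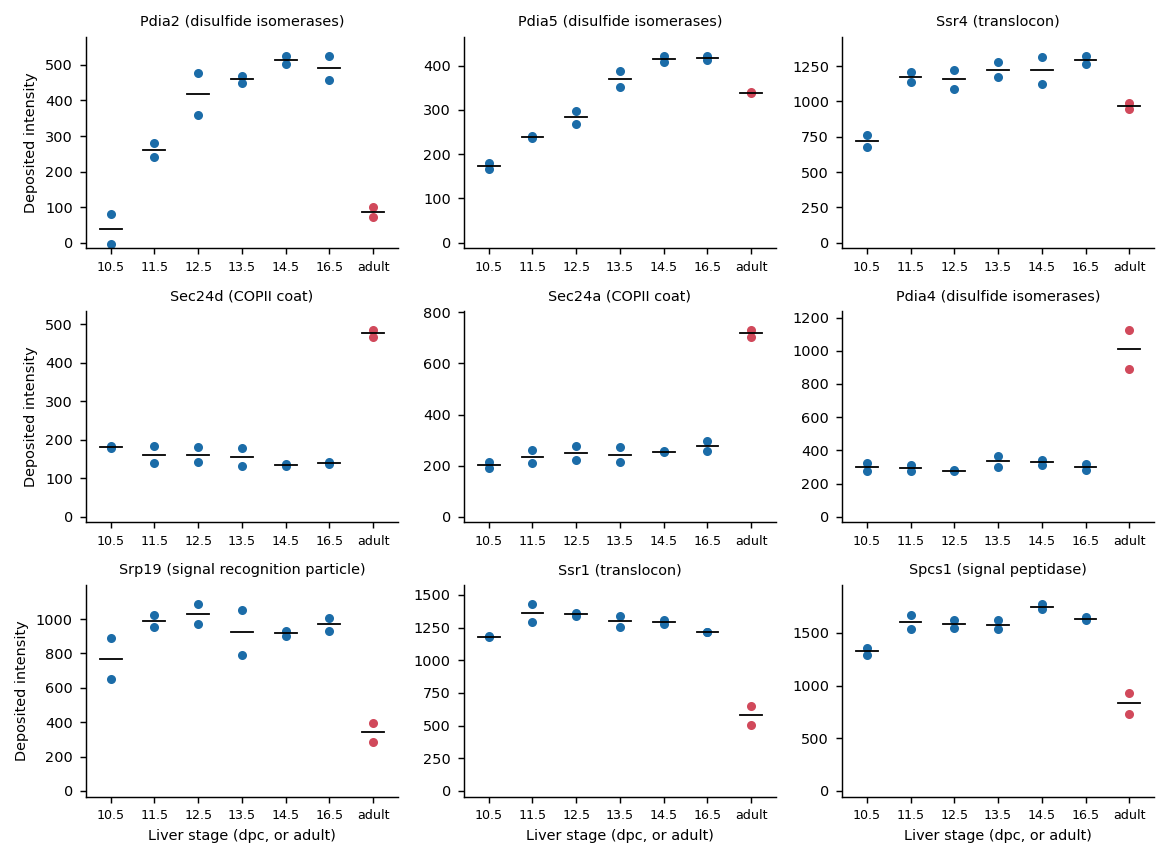
Deposited intensity of 9 machinery genes on every liver array, by stage in dpc with adult liver last. Points are arrays, the bar is the mean of the 2 arrays of a group, and each linear axis starts at 0; Sec24d, Sec24a and Pdia4 stand above every embryonic array in adult liver, and Srp19, Ssr1 and Spcs1 stand below every embryonic array.

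Cargo-binding subunits of COPII differed in opposite directions. Sec24d read 132 to 184 on all 12 embryonic liver arrays and 467 and 486 in adult liver, and was higher by 1.76 log2, or 3.38-fold (SE 0.19, adjusted p = 1.29e-05). Sec24a read 191 to 297 on the embryonic arrays and 703 and 732 in adult liver, and was higher by 1.38 log2, or 2.60-fold (SE 0.17, adjusted p = 3.53e-05). A second Sec24a probe set gave 1.40 log2. Sec24b went the other way, with 184 and 136 at 16.5 dpc and 71.6 and 80.9 in adult liver, and was lower by 2.08-fold (-1.05 log2, SE 0.17, adjusted p = 0.000323). These subunits bind overlapping sets of cargo, and Sec24c was also lower (-0.48 log2), though its other probe set gave 0.16. Sec23a, which pairs with Sec24 in the inner coat and stimulates the coat's GTPase Sar1, was higher by 0.52 log2 (SE 0.14, adjusted p = 0.00799), and Sec31a by 0.58 (SE 0.15, adjusted p = 0.0075). Sec23b gave 0.13 log2 and was not called, and Sec13, which Sec31 binds in the outer cage, was lower (-0.55 log2).

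The promoters of Sec24d and Sec23a, both among the 9 members higher in adult liver, are shown for a motif that they hold. That of Pdia6, which was not called there (-0.30 log2), serves to show the other motif searched. No searched promoter of another member higher in adult liver held either motif. Each stretch runs 5′ to 3′ on the gene's strand from 250 bases before the annotated start to 50 after it, taken from RefSeq on GRCm38.p6. Sec24d lies at chr3:123267246-123267545 on the plus strand, Sec23a at chr12:59011968-59012267 on the minus strand and Pdia6 at chr12:17266339-17266638 on the plus strand. The annotated Sec24d gene begins upstream, at chr3:123264801, so the start used for it lies inside the gene. Capitals mark the core of the unfolded protein response element (UPRE, TGACGTGG) in Sec24d and Sec23a and both ends of the ER stress response element (ERSE, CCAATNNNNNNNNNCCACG) in Pdia6.
Sec24d: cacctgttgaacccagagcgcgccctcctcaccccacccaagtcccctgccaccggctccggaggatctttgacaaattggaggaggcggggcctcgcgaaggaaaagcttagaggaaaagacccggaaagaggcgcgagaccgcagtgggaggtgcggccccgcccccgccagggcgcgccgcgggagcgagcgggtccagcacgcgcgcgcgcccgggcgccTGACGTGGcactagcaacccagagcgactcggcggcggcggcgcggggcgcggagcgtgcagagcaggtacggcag
Sec23a: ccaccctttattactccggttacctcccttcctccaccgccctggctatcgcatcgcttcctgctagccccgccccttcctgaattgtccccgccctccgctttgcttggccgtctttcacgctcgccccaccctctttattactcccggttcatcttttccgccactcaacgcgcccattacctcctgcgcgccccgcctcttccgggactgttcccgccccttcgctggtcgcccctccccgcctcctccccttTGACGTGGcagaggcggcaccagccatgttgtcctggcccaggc
Pdia6: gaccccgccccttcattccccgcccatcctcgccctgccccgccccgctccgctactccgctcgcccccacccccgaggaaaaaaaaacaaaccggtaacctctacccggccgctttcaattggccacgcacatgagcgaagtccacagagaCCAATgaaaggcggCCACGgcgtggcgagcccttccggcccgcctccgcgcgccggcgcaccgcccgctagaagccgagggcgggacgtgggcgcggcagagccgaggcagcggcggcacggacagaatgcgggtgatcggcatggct
The 41 member genes with an entry had 43 promoters, which were searched on both strands beside all 32851 promoters of the table. The UPRE core was found in 4 of 43 (9.30%) and in 222 of all promoters (0.676%). It began at position -26 from the start used for Sec24d and position 7 of Sec23a, and it also lay in Copb1 and Copb2, on the opposite strand. In adult against 16.5 dpc liver these 4 genes gave 1.76, 0.52, 0.11 and -0.59 log2, so they did not move alike. ERSE was found in 1 of 43, Pdia6, in 0.119% of all promoters, and in 7 of 19 promoters of the ER chaperone list (36.8%). A related element, ERSE-II (ATTGG and CCACG with any 1 base between), was found in none of the 43 and in 0.0365% of all. The CCAAT box alone, which ERSE contains and whose reverse complement opens ERSE-II, was found in 18 of 43 (41.9%) and in 37.4% of all. A match of letters does not show that a factor binds there.

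Among the isomerases, Pdia4 read 274 to 369 on the embryonic liver arrays and 891 and 1127 in adult liver, and was higher by 1.73 log2, or 3.32-fold (SE 0.16, adjusted p = 4.22e-06). Its second probe set went the other way, with 208 and 221 at 16.5 dpc and 76.7 and 115.5 in adult liver (-1.19 log2), so the direction rests on the brighter probe set. Averaging both gave 0.27 log2 with an adjusted p of 0.125. Pdia2 read 73.3 and 101.9 in adult liver, below every embryonic array from 11.5 dpc on, and was lower by 5.68-fold (-2.51 log2, SE 0.41, adjusted p = 0.000364). Pdia5, which had climbed through gestation, was lower in adult liver at 337 and 341 (-0.30 log2). Pdia3 gave -0.00 log2 with an SE of 0.24, and Pdia6 gave -0.30 and was not called.

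On the import side, Srp19, a protein that binds the particle's RNA early in its assembly, read 651 to 1090 on embryonic liver arrays and 394 and 287 in adult liver, and was lower by 2.88-fold (-1.53 log2, SE 0.20, adjusted p = 5.62e-05). Srp68 was lower with it (-0.94 log2, SE 0.15, adjusted p = 0.000278), as were Srp14 (-0.69) and Srp72 (-0.42). Srp9, which pairs with Srp14, gave -0.30 and was not called, and Srp54b, whose product binds the signal sequence, gave 0.30 and was not called. Ssr1, the alpha subunit of the signal sequence receptor, read 1176 to 1434 on embryonic arrays and 652 and 508 in adult liver, and was lower by 2.12-fold (-1.08 log2, SE 0.13, adjusted p = 2.57e-05). Ssr2, its beta partner, gave -0.95 log2 (SE 0.12, adjusted p = 5.26e-05) and Ssr4 -0.42, both lower, with 0.37 from 1 of 2 other Ssr4 probe sets, and Ssr3 gave -0.17 and was not called. Of the channel itself, Sec61b was lower (-0.93 log2, adjusted p = 0.00117), whereas Sec61a1 read 888 and 938 at 16.5 dpc and 751 and 744 in adult liver and was not called (-0.29). Sec63, which recruits the chaperone BiP to the channel, was the 1 channel gene higher in adult liver (0.68 log2, SE 0.16, adjusted p = 0.00325), and its 4 other probe sets gave 0.49 to 1.16.

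All 3 signal peptidase genes were lower in adult liver. Spcs1 read 1291 to 1776 on embryonic liver arrays and 734 and 929 in adult liver (-0.98 log2, SE 0.12, adjusted p = 4.91e-05). Spcs2 went from 1392 and 1419 at 16.5 dpc to 750 and 807 (-0.85 log2, SE 0.10, adjusted p = 3.77e-05). Spcs3 went from 768 and 780 to 485 and 408 (-0.80 log2, SE 0.14, adjusted p = 0.000553). Oligosaccharyltransferase genes, whose products act on the same emerging chains, gave 0 higher and 9 lower of 11, with a median of -0.80 log2. Over all genes 17.1% were higher and 37.5% lower. For the 11, centring gave 0 and 8, beside 25.7% and 29.4% of all genes. Quantile normalization gave 1 and 6, beside 26.4% and 28.9%. The lowest were Tusc3 (-2.73 log2, SE 0.11), an oxidoreductase subunit, and Stt3b (-1.37), a catalytic subunit.

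In the COPI coat, Copz2, the second zeta subunit, was higher in adult liver at 175 and 154 against 105 and 116 (0.57 log2, SE 0.15, adjusted p = 0.00858). Copz1 was lower at 630 and 647 against 1003 and 1091 (-0.71 log2, SE 0.13, adjusted p = 0.000605), but its other probe set gave 0.82, and averaging the probe sets gave 0.052 with an adjusted p of 0.752. Copb2 (-0.59 log2, adjusted p = 0.00289) and Cope (-0.32) were lower, and Copa, Copb1, Copg1 and Copg2 were not called. Among p24 receptors, Tmed5 was higher at 446 and 440 against 254 and 234 (0.86 log2, SE 0.15, adjusted p = 0.000521), as was Tmed4 (0.35). Tmed9 (-0.59 log2, SE 0.16, adjusted p = 0.0100) and Tmed10 (-0.45) were lower, and Tmed3, Tmed7 and Tmed8 were not called. Tmed9, Srp14, Ssr3, Ssr4, Sec63 and Tmed7 are read by probe sets of the kinds whose probes can also match other transcripts.

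The balance of these calls depended on the scaling. Centring each array gave 13 higher and 12 lower genes, beside 25.7% of all genes higher and 29.4% lower, with medians of -0.04 log2 over the machinery and 0.04 over all genes. Quantile normalization gave 13 and 9, beside 26.4% and 28.9% of all genes, with a machinery median of 0.082. All 9 genes called higher were called higher under all 3 scalings. Of the 21 lower calls, 9 held under all 3, namely Pdia2, Sec24b, Sec61b, Spcs1, Spcs2, Srp19, Srp68, Ssr1 and Ssr2. The shares of all genes called under all 3 scalings were not counted, so these counts describe single genes only. The COPII median was 0.32 log2 as deposited, 0.60 with centring and 0.74 with quantile normalization, and that of signal peptidase -0.85, -0.58 and -0.39. The median of the channel and receptor group was -0.41 as deposited and 0.09 with quantile normalization, and with quantile normalization the medians of disulfide isomerases (0.12), COPI (0.06) and p24 receptors (0.14) were above 0 as well, so no direction is given for these 4 groups as a whole.

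Blood cell markers differed between these groups too. Summed red cell markers were 18395 to 18750 at 16.5 dpc and 539 to 585 in adult liver, summed neutrophil markers 7343 to 7870 and 645 to 684, and summed hepatocyte markers 24357 to 24834 and 30062 to 32604. Of the marker genes tested, 6 of 7 red cell and 6 of 6 neutrophil markers were lower in adult liver, and 4 of 7 hepatocyte markers were higher. Red cell markers thus stood low both at 10.5 dpc and in adult liver. The part of this difference in cell make-up in the machinery values was not tested.

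Partner genes were called in both directions too. Over all genes tested 54.6% were called, 17.1% higher and 37.5% lower. The shares called were 91.7% for ER-associated degradation, 47.4% for chaperones and oxidases, 69.2% for stress regulators and 68.2% for receptor and transport partners. Of 12 genes of ER-associated degradation, 6 were higher, including Derl3 by 2.79 log2 and Derl2 by 1.38, both of which help pull proteins out of the ER, and 5 were lower. Of 19 chaperones and oxidases, 6 were higher, including Ero1b by 1.90 log2 and Creld2 by 1.78, and 3 lower. Quantile normalization gave 15 and 2, beside 26.4% and 28.9% of all genes. Of 13 stress regulators, 4 were higher and 5 lower. Ppp1r15a gave -4.50 log2 and Atf4, the transcription factor made when translation is checked, gave -1.95. Of 22 receptor and transport partners, 8 were higher, among them Kdelr3 by 1.67 log2 and Sec16b by 1.53, and 7 lower.

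Liver was then set against the rest of the embryo over the 12 arrays of the 4 matched stages. As deposited, 43 of 47 machinery genes were lower in liver and 2 higher, with a median of -1.31 log2. In the same test 85.7% of 14895 genes were called, 18.2% higher and 67.5% lower, with a median of -1.04, and the values of the tissues are scaled differently. With centring, 34 were lower and 4 higher, beside 43.3% of all genes lower and 31.7% higher, with medians of -0.48 over the machinery and -0.20 over all genes. With quantile normalization 17 were lower and 7 higher, beside 41.4% and 29.5% of all genes, with medians of -0.11 and -0.16. The median of plasma protein genes was 2.97 log2 as deposited, with 28 of 31 higher in liver, 3.81 with centring and 3.62 with quantile normalization. Some of them, such as Hp and Cp, lay at the floor in the rest of the embryo and were tested only through liver. Such genes had to be higher there, so this count and these medians support no contrast with the machinery.

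**Figure D4:**
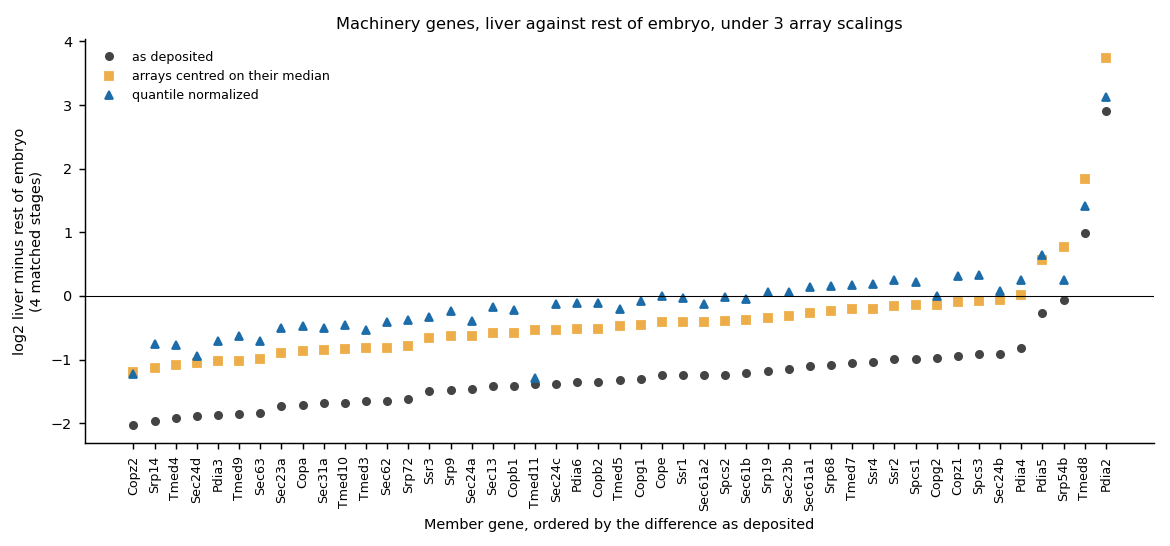
Log2 difference of liver minus the rest of the embryo for 47 machinery genes under 3 scalings, as deposited (grey circles), centred on each array's median (orange squares) and quantile normalized (blue triangles). Most grey points lie below 0, with a median of -1.31, and the blue points scatter around 0 with a median of -0.11. Pdia2 and Tmed8 stand above 0 under all 3.

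Under all 3 scalings 17 machinery genes were lower in liver, namely Copa, Copz2, Pdia3, Sec23a, Sec24a, Sec24d, Sec31a, Sec62, Sec63, Srp14, Srp72, Ssr3, Tmed3, Tmed4, Tmed9, Tmed10 and Tmed11. The share of all genes lower under all 3 was not counted. With quantile normalization alone 41.4% of all genes were lower, so the 17 are not read as a trait of the machinery. Tmed11 was bright enough to be tested only through the rest of the embryo, so it had to be lower in liver and supports nothing. Other probe sets went the opposite way for Copa (0.54 log2), Sec24a (0.26), Tmed3 (1.85) and, 1 of 4, Sec62 (1.40). Copz2 read 89.9 to 151 on the 8 matched liver arrays and 262 to 1166 in the rest of the embryo, and differed by -2.03 log2 (SE 0.28, adjusted p = 4.08e-05), -1.19 with centring and -1.23 with quantile normalization. Copa, the alpha subunit of the outer COPI coat, gave -1.71, -0.87 and -0.48 in the same order. Sec24d read 132 to 184 in liver and 370 to 1131 in the rest, and gave -1.89 (SE 0.27, adjusted p = 6.19e-05), -1.05 and -0.94. Sec23a gave -1.74, -0.90 and -0.50. With quantile normalization 4 of 8 COPII genes were lower, a share near that of all genes (41.4%), and 5 of 8 p24 receptors, Tmed11 among them.

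In the other groups, and for further p24 receptors, the values also depended on the scaling. Srp14 read 816 to 1041 in liver and 3249 to 3710 in the rest, and gave -1.97 log2 (SE 0.08, adjusted p = 6.90e-09) as deposited and -0.75 with quantile normalization. Sec63 gave -1.83 (SE 0.10) and -0.70, and Sec62 -1.65 and -0.41. Pdia3 gave -1.86 (SE 0.14) and -0.70, Tmed4 -1.92 (SE 0.09) and -0.77, Tmed9 -1.86 and -0.64, and Srp72 -1.63 and -0.38. Spcs1 changed direction, with -0.99 as deposited, -0.15 with centring and 0.22 with quantile normalization, and Spcs2 gave -1.24, -0.40 and -0.02. Copz1, Pdia4, Spcs1 and Spcs3 were called lower under 1 scaling and higher under another, so no direction is given for them.

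The 2 genes higher in liver under all 3 scalings are named after their values were seen. Pdia2 read 17.9 to 46.8 in the rest of the embryo, under the brightness filter on all 4 arrays and under the floor on 2, and -2.10 to 524 on the matched liver arrays. It was tested only through its level in liver, so it had to be higher there, its call supports nothing and no difference is given. Tmed8 read 147 to 199 in liver and 54.5 to 100.4 in the rest, and was higher by 1.0 log2 (SE 0.16, adjusted p = 0.000178), but its other probe set gave -2.16. Pdia5 (-0.27 log2) and Srp54b (-0.07) were the members not called as deposited. The summed mesenchyme markers were 13194 to 29435 in the rest of the embryo, above all liver arrays, and summed neural markers 15423 to 19691 against 264 to 707. The part of these tissues in the differences was not tested.

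Last, the gap between the tissues was followed over time, as the change per day of the liver minus rest difference from 10.5 to 14.5 dpc. Of 47 machinery genes, 7 fell in liver relative to the rest and 0 rose, beside 15.8% of all genes called, 5.90% higher and 9.87% lower. The median was -0.06 log2 per day over the machinery and -0.03 over all genes. The 7 were Copz2, Sec24d, Tmed3, Sec31a, Sec61a2, Sec23a and Tmed10, 3 of them from the COPII coat. Plasma protein genes were mixed. Of 31 tested, 15 rose in liver relative to the rest, 0 fell and 16 had no call, and the median was 0.47 log2 per day. The difference was above 0 for 25 of them and below 0 for 6, among these Afp (-0.73), Rbp4 (-0.48), Alb (-0.30) and Ttr (-0.29). For plasma protein genes at the floor in the rest of the embryo, such as Hp and Cp, the value is the slope in liver alone. Of 6 hepatocyte markers tested, some of them also plasma protein genes, 0 had a call, and their median was -0.10.

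**Figure D5:**
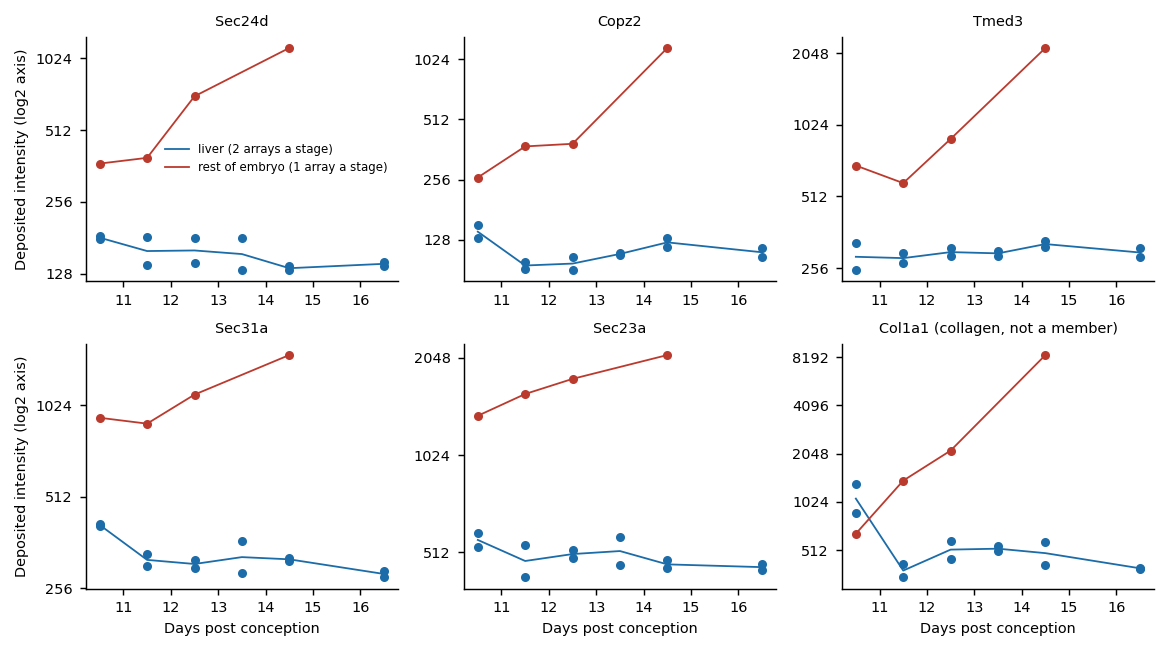
Intensity on a log2 axis of Sec24d, Copz2, Tmed3, Sec31a, Sec23a and the collagen gene Col1a1 against stage in dpc, in embryonic liver (blue, 2 arrays per stage) and the rest of the embryo (red, 1 array per stage). The red points are highest at 14.5 dpc in every panel, for Copz2 at 1166 against 262 at 10.5 dpc, and the blue points of the 5 machinery genes lie below the red ones at every shared stage.

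For 6 of the 7 the slope in the rest of the embryo was larger in size than that in liver. Copz2 read 262, 375, 386 and 1166 there over the 4 matched stages in order, against 151 and 131 on the first liver arrays and 117 and 131 on those of 14.5 dpc. Its slope was -0.01 log2 per day in liver and 0.53 in the rest, a difference of -0.54 (SE 0.12, adjusted p = 0.0109). Sec24d read 370, 392, 709 and 1131 in the rest, against 178 and 184 at 10.5 and 138 and 132 at 14.5 dpc in liver, and its slopes differed by -0.53 (SE 0.08, adjusted p = 0.00202). Tmed3 read 691, 583, 893 and 2152 in the rest and 251 to 334 on the liver arrays, and its slopes differed by -0.40 (SE 0.09, adjusted p = 0.0117), but its other probe set gave 0.06. Sec31a gave -0.27 (SE 0.07, adjusted p = 0.0210), Sec23a -0.20 (SE 0.05, adjusted p = 0.0279), Tmed10 -0.15 (SE 0.04, adjusted p = 0.0448) and Sec61a2 -0.23 (SE 0.07, adjusted p = 0.0374). Copz2, Sec24d, Sec31a and Tmed3 were called under all 3 scalings.

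The rest-of-embryo array at 14.5 dpc decided these tests. Without it no machinery gene was called, Sec24d giving -0.57 log2 per day (adjusted p = 0.167), Copz2 -0.29 (adjusted p = 0.633), Sec31a -0.20 (adjusted p = 0.572) and Tmed3 -0.14 (adjusted p = 0.785). The count of falls was 4 without the second 10.5 dpc liver array, and 2 genes were called as rising without the first. Matrix protein genes, cargo of fibroblasts and cartilage cells that passes through the same pathway, were tested in the same way. Of 13, 11 fell in liver relative to the rest, with a median of -0.62 log2 per day, and Col1a1 gave -1.10. Kdelr3 (-0.64) and Kdelr1 (-0.35), 2 of 5 called transport partners of 22, fell as well, as did Creb3l1 (-0.84) and Creb3l2 (-0.57), transcription factors related to the ER stress sensor ATF6. Mesenchyme markers moved with them (7 of 9 lower, median -0.43), and their part in the result was not tested. Summed hepatocyte markers in the rest of the embryo rose from 1572 at 10.5 dpc to 9910 at 14.5 dpc, and their part was not tested either. No oligosaccharyltransferase or ER chaperone gene was called.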

How the data were processed

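Total RNA was turned into biotin-labelled cRNA for Affymetrix mouse arrays, per the labels' protocols. The authors deposited 1 table of linear probe set intensities for all 18 arrays. The summarisation and scaling of these intensities are not given in the sources used here. Groups came from the source names. Genes were named from the platform annotation where a probe set had 1 symbol, and where a gene had several, the brightest by mean log2 stood for it. Intensities were raised to a floor of 24.8 (20th percentile) before log2, which shrinks differences of genes near it, and a gene was tested if it passed 78.0 (50th percentile) on at least 2 arrays. Differences, SE and two-sided p came from limma 3.58.1 in R 4.3.3, adjusted after Benjamini and Hochberg over all genes tested. All 14 liver arrays shared 1 fit, with 1 mean for each of the 7 groups. The tissues were fitted over 12 arrays with stage as a factor, and their change with stage as an interaction with dpc. The code was tested on simulated data.

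The members and lists were chosen with earlier results of these data known. Per comparison, up to 2 called members per machinery group and 2 called genes per list, those with the largest differences, were named with full values, and the other members are accounted for by group. Markers were read as summed intensities. Alternatives were centring, quantile normalization, other floors and filters, other ways to read genes with several probe sets, a fit of all arrays, a replicate block and leaving out each array. The number of arrays limits the precision.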

Additional observations from a re-analysis of the deposited data

Results flagged for a closer look

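For 7 members the change with stage differed between liver and the rest of the embryo by a test of that difference itself, the interaction in limma. These are 14.9% of the 47 members tested. Of all 14895 genes tested 15.8% were called, 5.90% higher and 9.87% lower, so the share called was near that of all genes. The difference in slope, liver minus rest, was -0.54 log2 per day for Copz2, -0.53 for Sec24d, -0.40 for Tmed3, -0.27 for Sec31a, -0.23 for Sec61a2, -0.20 for Sec23a and -0.15 for Tmed10. The slope in the rest of the embryo was positive for all 7, from 0.08 for Sec61a2 to 0.53 for Copz2. In liver it lay between -0.15 for Sec61a2 and 0.05 for Tmed3. All 7 calls rested on the single rest-of-embryo array at 14.5 dpc, without which no member was called. Tmed10 kept its call in 6 of 20 alternative settings and Sec61a2 in 11 of 20. The other Tmed3 probe set gave 0.06 log2 per day.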

How the results depend on the processing

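Counts of members called higher and lower moved as follows. From 10.5 to 16.5 dpc the 7 and 2 became 4 and 5 with centring and 4 and 5 with quantile normalization, 5 probe sets were lower with all probe sets tested apart, and leaving out single arrays gave 4 to 8 and 1 to 3. From 11.5 to 16.5 dpc the 2 and 3 became 1 and 6 with centring and 1 and 8 with quantile normalization, 4 probe sets were higher, and single arrays gave 1 to 3 and 0 to 4. Over any stage the 5 became 4 to 9. In adult liver the 21 lower became 12 with centring and 9 with quantile normalization, with 16 probe sets higher and 32 lower; the median difference turned to 0.082 with quantile normalization, and Copz1 to 0.052 on the mean of its probe sets. Between tissues the 2 higher became 4 with centring, 7 with quantile normalization and 1 on mean probe sets, the 43 lower became 17 with quantile normalization, 9 and 73 probe sets were called, and Spcs1 turned to 0.22 with quantile normalization. For the change with stage the 0 and 7 became 3 and 4 with centring, which turned the median to 0.0050, and single arrays gave 0 to 2 and 0 to 7. The causes were not tested. Over all settings, values of named members kept direction and call in 1072 cases, lost the call in 104 and reversed in 2.

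Replicate numbers did not pair the arrays: over 21 pairs of groups, deviations of same-numbered arrays correlated between -0.35 and 0.25. With the replicate block the counts were 5 and 2, 2 and 3, and 5 for the embryonic comparisons, 9 and 20 for adult liver, 2 and 43 between tissues and 0 and 5 for the change with stage. The fit of all arrays was not run for the change with stage. Signal near background limits Pdia2, Copz2 and Tmed11.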
